A study of Mus musculus with 24 samples.

Results

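Reduced representation bisulfite sequencing (RRBS) of the mouse dentate gyrus, the part of the hippocampus that holds the granule neurons, gave a methylation percentage for 694379 CpGs. The CpGs described here were chosen by their measured percentages: they were the 1035 autosomal ones that had a value in all 24 mice and a mean over those mice above 25 and below 75 percent. They made up 0.149% of the table and 12.6% of the 8236 autosomal CpGs measured in all 24 mice. These 8236 CpGs, members included, are called the shared CpGs here. Of those that were not members, 4000 had a mean of 25 percent or less and 3201 a mean of 75 percent or more. All mice were female C57BL/6JRj mice, and each of the 3 groups held 8. Young STD mice were 3 months old and lived in standard housing (STD). Aged STD mice were 17 months old and lived in the same housing. Aged ENR mice were also 17 months old and had spent 3 months in an enriched environment (ENR), housing with more space and objects than a standard cage. The dentate gyrus was dissected as a whole, so each percentage is an average over all cell types of the tissue, and a change in the mix of cells and a change within cells cannot be told apart.

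In mammals, DNA methylation is placed mainly on the cytosine of CpG dinucleotides, where maintenance enzymes copy it to the new strand after replication. Most CpGs of a cell are either methylated or unmethylated, with CpG-dense promoters mostly unmethylated and repeats and gene bodies mostly methylated. An intermediate percentage therefore stands for a mixture. Known settings are imprinted genes, where the copies from the mother and the father differ, tissues made of several cell types, and multicopy sequences such as ribosomal RNA (rRNA) genes, of which only some copies are active.

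The sequences around the CpGs on which the results turn are given first, so that each value can be read beside its site. The 10 windows that follow hold 61 bases of the GRCm38 reference, 5′ to 3′ on the strand that was measured, with the measured CpG in capitals. They show the CpGs at which aged STD mice differed most from young STD mice, those at which aged ENR mice differed most from aged STD mice, those with the smallest and the largest spread between mice, and 2 sites at imprinted genes.
Gm43606, chr5:51868344-51868404, minus strand: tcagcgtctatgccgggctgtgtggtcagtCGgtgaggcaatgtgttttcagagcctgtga
B430119L08Rik, chr12:103895958-103896018, minus strand: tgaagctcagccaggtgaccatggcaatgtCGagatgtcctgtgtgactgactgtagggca
Gm11736, chr11:113754425-113754485, minus strand: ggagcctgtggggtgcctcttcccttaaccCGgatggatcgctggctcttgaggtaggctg
Dlgap3, chr4:127178207-127178267, minus strand: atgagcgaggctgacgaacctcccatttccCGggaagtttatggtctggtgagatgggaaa
2310043L19Rik, chr1:177659800-177659860, plus strand: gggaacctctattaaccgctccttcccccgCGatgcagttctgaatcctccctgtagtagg
Gm18252, chr10:34746102-34746162, plus strand: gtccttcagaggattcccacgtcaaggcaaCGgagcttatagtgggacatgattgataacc
Gm47431, chr12:52447240-52447300, plus strand: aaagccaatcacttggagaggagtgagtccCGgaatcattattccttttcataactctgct
Myom1, chr17:71097264-71097324, minus strand: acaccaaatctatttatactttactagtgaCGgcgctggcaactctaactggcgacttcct
Gnas, chr2:174328361-174328421, minus strand: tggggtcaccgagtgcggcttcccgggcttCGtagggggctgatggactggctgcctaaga
Mkrn3, chr7:62420669-62420729, minus strand: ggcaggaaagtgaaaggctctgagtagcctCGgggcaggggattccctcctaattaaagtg
Each window was named after the gene with the nearest transcription start. The windows of B430119L08Rik, Gm47431 and Mkrn3 held no CpG but the measured one, and that of Gnas held 4. The measured CpG lay in CCGG, the site cut by the enzyme MspI that is used for RRBS, near Gm11736, Dlgap3 and Gm47431. Over all members this was so for 532 CpGs (51.4%), against 35.6% of the shared CpGs of 25 percent or less and 50.05% of those of 75 percent or more.

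The longest runs of members are shown for their density, with a few reference bases at either end and the member CpGs in capitals.
Gm26917, chr17:39844804-39844883, plus strand: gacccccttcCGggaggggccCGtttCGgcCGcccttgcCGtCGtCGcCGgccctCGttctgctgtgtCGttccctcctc
Tmem267, chr13:119489026-119489119, minus strand: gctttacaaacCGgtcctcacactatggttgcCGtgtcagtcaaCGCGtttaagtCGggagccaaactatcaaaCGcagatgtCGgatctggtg
Gm45677, chr8:15519886-15519970, minus strand: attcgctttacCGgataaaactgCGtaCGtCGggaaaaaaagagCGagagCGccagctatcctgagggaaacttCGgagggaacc
The first run held 10 members and lay in the rRNA gene region of chromosome 17, within 1 kb upstream of the start of a transcript of the lincRNA gene Gm26917. The runs near Tmem267, which encodes a membrane protein, and near the predicted gene Gm45677 held 7 members each.

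The members were spread over the genome and lay further from genes than unmethylated CpGs did. By the GENCODE M21 annotation 182 of them (17.6%) were within 1 kb of a transcription start, 83 (8.02%) were in exons, 368 (35.6%) in introns and 402 (38.8%) between genes. The shared CpGs of 25 percent or less were within 1 kb of a start in 68.2% of cases and those of 75 percent or more in 9.03%, so that the members stood between these sets. The median distance to a start was 7889 bp for the members, 464 bp for the CpGs of low methylation and 12906 bp for those of high methylation.

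The sequence around the members was poor in CpGs. A window of 202 bp around a member held a median of 4 CpGs, as it did around the highly methylated CpGs, whereas it held 8 around those of low methylation. Repeat sequence, as marked in the reference, held 220 members (21.3%), against 10.1% of the low and 48.9% of the high set. The 61 bases around a member had an exact copy elsewhere in the primary assembly for 35 members (3.38%), against 0.575% and 11.3%. Members were found on every autosome and made up between 9.80% of the shared CpGs of the chromosome, on chromosome 18, and 16.4%, on chromosome 8. They were nearest to 688 genes, of which 486 had 1 member, and 496 members were nearest to 352 protein-coding genes.

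The members were chosen by their mean and by having a value in every mouse, and a mean between the bounds did not describe single mice. Only 4 of the 1035 members (0.386%) were between 25 and 75 percent in all 24 mice, and 69 (6.67%) were between 10 and 90 percent in all of them. The median member was between 25 and 75 percent in 14 mice, with a range of 2 to 24. At 573 members (55.4%) at least 1 mouse was under 10 percent and at least 1 above 90 percent, and at 416 of them a mouse at exactly 0 faced a mouse at exactly 100. The members are therefore best called CpGs of intermediate mean methylation. Of their 24840 values 57.6% were between 25 and 75 percent and 14.5% were exactly 0 or 100, against 65.4% at 0 or 100 in the other shared autosomal CpGs.

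**Figure D1:**
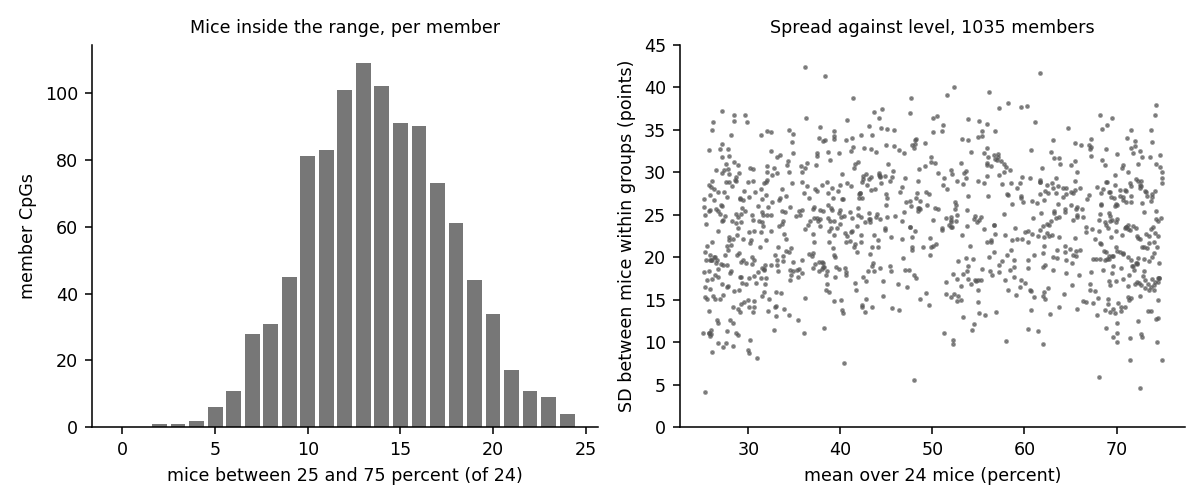
The bars on the left count the members (vertical axis) by the number of the 24 mice that were between 25 and 75 percent, and the points on the right show for each member the SD between mice, pooled within the groups, in percentage points (vertical axis) against its mean over 24 mice in percent. The median member had 14 mice in the range, and the SD had a median of 23.8 points and changed little with the mean.

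The spread between mice was wide and hardly followed the level. The SD between mice, pooled within the 3 groups, had a median of 23.8 points, quartiles of 18.5 and 28.5 points, and a range of 4.11 to 42.3 points. In steps of 10 points of the mean from 25 to 75 percent, the median SD was 22.1, 24.7, 24.8, 24.4 and 22.9 points. The shared CpGs of low and of high methylation, which lie near an end of the scale, had median SDs of 6.68 and 9.13 points. Members within 1 kb of a start had a median SD of 20.6 points, members in exons 25.2, in introns 24.6 and between genes 23.6. Members in marked repeats had a median SD of 21.2 points and the others 24.5.

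The members were also the least variable part of a larger set. Over all numbers of mice with a value, 80128 autosomal CpGs (11.9% of those in the table) had a mean between 25 and 75 percent, and the members were 1.29% of these. Among intermediate CpGs with a value in 9 to 12 mice, the median SD between mice was 42.8 points and 66.6% of the values were exactly 0 or 100. With 21 to 23 mice the values were 32.2 points and 32.8%, and with 24 mice, the members, 23.8 points and 14.5%. A value in every mouse requires enough reads in every mouse, and the numbers of reads behind the percentages were not at hand, so the part of depth in this trend was not tested.

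**Figure D2:**
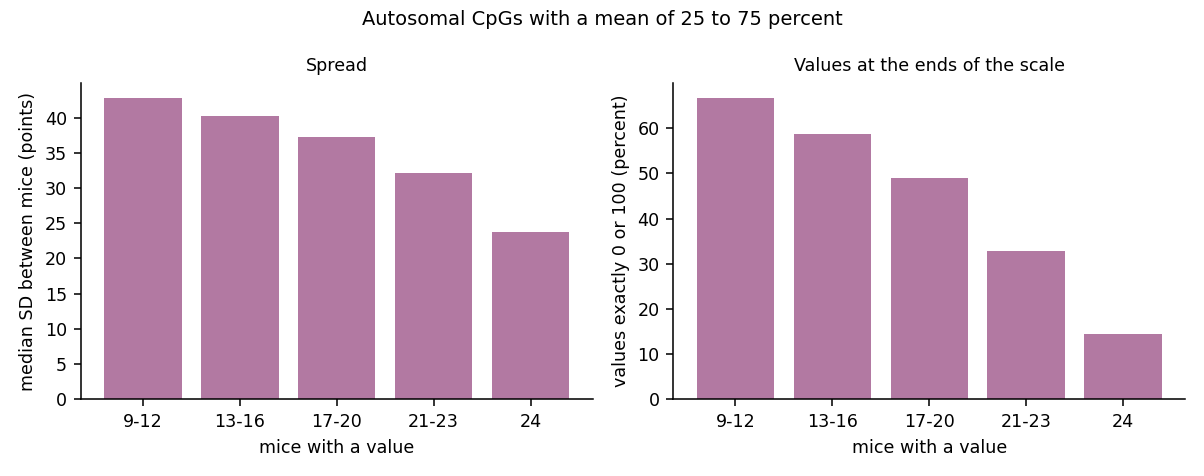
Bars show, for autosomal CpGs with a mean of 25 to 75 percent and by the number of mice with a value, the median SD between mice in percentage points (left) and the percent of values that were exactly 0 or 100 (right). Both fell from the CpGs with 9 to 12 mice, 42.8 points and 66.6%, to the members with 24 mice, 23.8 points and 14.5%.

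The steadiest CpGs near the middle of the scale are named here by their SD over all 24 mice, among members with a mean of 40 to 60 percent. The smallest SD was 7.46 points, at a CpG in a marked repeat upstream of the lincRNA gene 2310043L19Rik (chr1:177659830-177659830), where the mice ranged from 27.1 to 53.3 percent. It was followed by a CpG with an SD of 8.2 points near the pseudogene Gm18252 (chr10:34746132-34746132), where the mice ranged from 34.2 to 63.5 percent and whose 61-base window occurs 47 times in the assembly. The next were near Tspyl5, a gene of the nucleosome assembly protein family, Gm20675 and Gm48668, with SDs of 9.57, 9.80 and 10.1 points. The CpGs near 2310043L19Rik, Gm18252, Gm20675 and Gm42430 were the 4 that stayed between 25 and 75 percent in all 24 mice, and 3 of these 4 lay in marked repeats. Their neighbours were not all intermediate: at Gm18252 the CpGs 11 and 68 bp away had means of 93.1 and 90.6 percent, and at 2310043L19Rik those 2, 14, 31 and 57 bp away had means of 68.1, 72.5, 85.3 and 97.9 percent.

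The least steady members moved over the whole scale. The largest SD over 24 mice was 41.3 points at a CpG within 1 kb of a start of the lincRNA gene Gm47431 (chr12:52447270-52447270), where 5 mice were at 0 and 8 at 100. Those that followed were in an intron of Myom1, which encodes a protein of the muscle M-band (SD 41.1 points, 7 mice at 0 and 5 at 100), and near Neil3, a DNA repair glycosylase (SD 40.1 points, 11 mice at 0 and 4 at 100). The others were near Gm29791 and near Scn8a, which encodes a neuronal sodium channel, with SDs of 39.7 and 39.2 points. In each of these 5 CpGs all 3 groups had mice at or near the bottom of the scale. The 100 members with the smallest pooled SD held 35 in marked repeats, 11 of the rRNA gene region and 9 near Gm48668, and the 100 with the largest held 7, 0 and 0.

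Neighbouring CpGs shared the intermediate level. Within 50 bp 697 members (67.3%) had another CpG of the table, and 442 (42.7%) had another member. Of the 2030 pairs of a member and a neighbour, the neighbour's mean was between 25 and 75 percent in 61.2%, and in 61.7% of the 642 pairs whose neighbour was not measured in all mice and so could not be a member. Around the shared CpGs of low and of high methylation such neighbours made up 3.30% and 5.78%. The mean of the nearest neighbour differed from that of the member by a median of 11.7 points. Joining members up to 100 bp apart gave 712 loci, of which 508 held 1 member and 14 at least 5.

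Mouse by mouse, neighbours moved together on the same strand. For pairs of members on the same strand, the deviations of the 24 mice from their group means correlated with a median r of 0.601 at 2 to 10 bp (99 pairs), 0.575 at 11 to 30 bp (188 pairs) and 0.453 at 31 to 75 bp (209 pairs). For 28 pairs on opposite strands up to 75 bp apart the median r was -0.0684, although their means differed by a median of only 5.27 points. At 76 to 1000 bp it was 0.0964 and between chromosomes 0.0193. Close CpGs of the same strand can be covered by the same reads, whereas the strands are read separately. The reads were not examined, so the part of shared reads in these correlations was not tested.

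**Figure D3:**
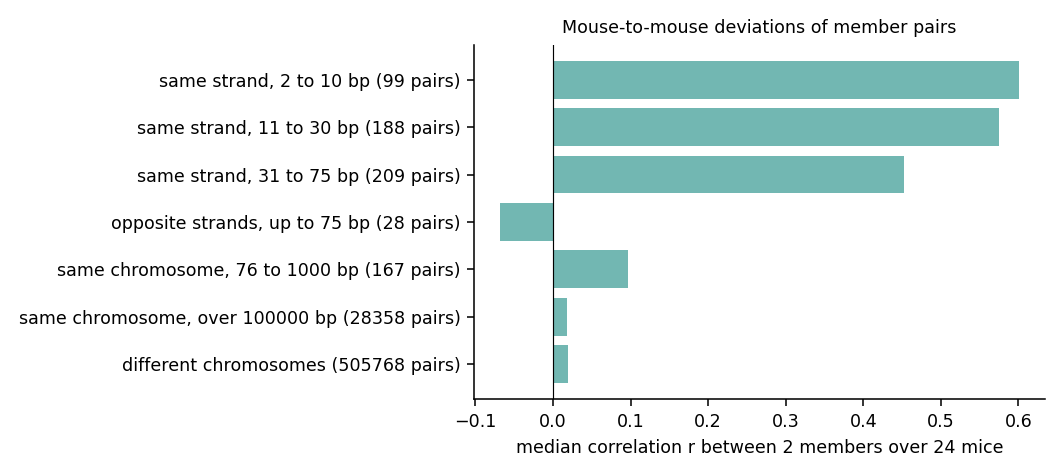
Bars show the median correlation r over 24 mice between the deviations of 2 members from their group means (horizontal axis), by strand and distance, with the number of pairs in brackets. It was 0.601 for same-strand pairs at 2 to 10 bp, -0.0684 for opposite strands and 0.0193 for pairs on different chromosomes.

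The other strand of the same CpG gave the same picture. It was in the table for 141 members, was between 25 and 75 percent in 109 of them, and differed from the member by a median of 7.40 points in its mean. Within a mouse, however, the strands differed by a median of 31.1 points, averaged over the mice with both values, and the median r over mice was 0.0529 (140 CpGs, median of 19 mice). For the nearest CpG of the same strand within 30 bp, the difference within a mouse was 19.3 points and the median r 0.445 (527 members). The mean level was thus shared by both strands at most of these CpGs, and the place of a mouse above or below it was not.

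Each mouse's mean over the 1035 members gave the group values. Young STD mice ranged from 49.3 to 55.4 percent with a median of 50.7, aged STD mice from 37.8 to 53.1 with a median of 49.4, and aged ENR mice from 46.3 to 51.7 with a median of 48.5. The group means were 51.5 ± 2.17 percent, 48.7 ± 4.83 percent and 48.8 ± 1.69 percent (SD, n = 8 each), and the groups overlapped. Aged STD replicate 5 stood apart at 37.8 percent. It also did so outside the members, with a mean of 88.98 percent over the shared CpGs of high methylation, against 92.3 to 93.7 percent in the other 23 mice. At the members it was alone the lowest of the 24 mice at 127 members, against at most 59 for any other mouse, and without it aged STD mice had 50.3 ± 2.07 percent (SD, n = 7). The counts over all members and the aged STD means of regions with several members are therefore also given without this mouse.

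**Figure D4:**
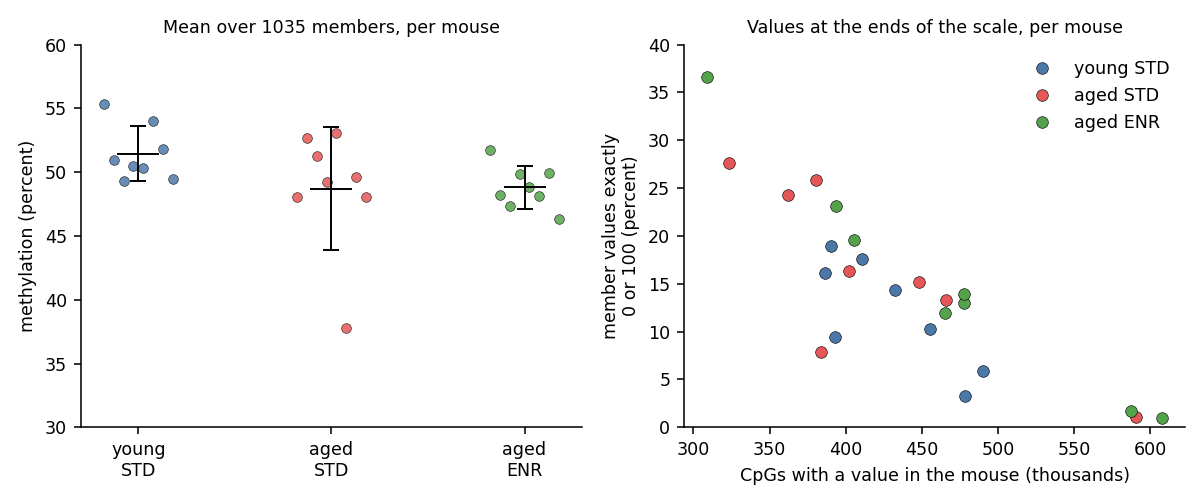
On the left each point is the mean over 1035 members in 1 mouse in percent, with the group mean (bar) and SD (whiskers), on an axis that runs from 30 to 60 percent, and aged STD replicate 5 lies alone at 37.8 percent. On the right the percent of a mouse's member values that were exactly 0 or 100 is plotted against the number of CpGs with a value in that mouse, and it ranged from 0.966 to 36.6%.

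The share of values at the ends of the scale differed more between mice than the means did. Young STD mice had 3.29 to 18.9%, aged STD mice 1.06 to 27.6%, and aged ENR mice 0.966 to 36.6%. The lowest shares, at most 1.74%, were those of 3 mice with values at 587562 CpGs or more, and the other mice had values at 490046 or fewer. The mouse with the highest share, aged ENR replicate 1, had the fewest, 308751. The number of CpGs with a value was the only sign of depth in the files.

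Between aged STD and young STD mice no member passed in the limma fit over all 694379 CpGs. The adjusted p was under 0.05 at 0 members and at 0.0049% of all CpGs, and the lowest adjusted p of a member was 0.226. At an unadjusted p under 0.05 there were 78 members (7.54%), 15 higher and 63 lower in aged STD mice, against 2.23% of all CpGs (0.967% higher, 1.27% lower) and 4.33% of the 8628 CpGs measured in all 24 mice on any chromosome, sex chromosomes included. Without aged STD replicate 5 there were 75 members, 23 higher and 52 lower, against 16152 of all 694379 CpGs, 8064 higher and 8088 lower. The median difference was -3.04 points, with 608 members lower and 427 higher, and without aged STD replicate 5 it was -1.48 points, with 561 lower and 474 higher. Over all CpGs the median difference was 0 and the mean difference -0.403 points, against a mean of -2.75 points over the members. Without aged STD replicate 5 the means were -0.0961 points over all CpGs and -1.19 points over the members. A difference over 25 points between group means was seen at 57 members (5.51%, and 65 members without replicate 5), against 9.16% of all CpGs and 1.16% of the 8628 measured in all mice. The SE of a member's difference had a median of 11.8 points, so differences of 10 points were within the error at most members. The script was also run on simulated data for this comparison. There, 39 of the members given no difference had an unadjusted p under 0.05, beside 2.08% of all CpGs given none. Members can thus exceed the share of all CpGs without any difference, and the 78 members are to be read beside these 39.

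The members with the largest aging differences are named without a claim, since none passed. At the intergenic CpG upstream of Gm43606 (chr5:51868374-51868374) young STD mice had 50 to 95.8 percent with a median of 78.5, aged STD mice 0 to 75 with a median of 9.01, and aged ENR mice 0 to 100 with a median of 45.01. The difference was -53.4 ± 13.1 points (SE), with an unadjusted p of 0.000536 and an adjusted p of 1 by limma. The aged STD group overlapped the young STD group through its highest mice, and the aged ENR mice covered the whole scale. The member 17 bp away on the same strand had a mean of 46.6 percent for young STD, 17.6 percent for aged STD and 26.0 percent for aged ENR mice.

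At the CpG within 1 kb of the start of the antisense gene B430119L08Rik (chr12:103895988-103895988) the order was the opposite. Young STD mice had 0 to 60.8 percent with a median of 15.1, aged STD mice 0 to 100 with a median of 90.1, and aged ENR mice 0 to 66.7 with a median of 37.3. The difference between aged STD and young STD was 47.3 ± 14.5 points (SE, adjusted p of 1 by limma), and a CpG 56 bp away on the same strand stayed at 94.1, 94.3 and 91.5 percent in the groups. The next were a CpG near the snoRNA gene Gm24120, with group means of 23.8, 68.9 (64.7 without replicate 5) and 40.6 percent, and an intronic one near a start of Atp2b1, which encodes a calcium pump of the plasma membrane, with 77.1, 33.6 (32.95 without replicate 5) and 33.5 percent. The groups overlapped at all 4 CpGs, and non-overlapping young STD and aged STD mice were found at 0 members and at 0.0139% of the other shared autosomal CpGs.

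The lowest unadjusted p of the members in this comparison belonged to a steady one. At the Gm18252 CpG young STD mice had 49.0 to 63.5 percent with a median of 57.1, aged STD mice 34.2 to 51.1 with a median of 40.2, and aged ENR mice 35.9 to 53.6 with a median of 47.0. The aged STD mice overlapped the young STD mice only at the edge of their ranges. The difference was -14.6 ± 2.75 points (SE, unadjusted p of 2.7e-05 and adjusted p of 0.226 by limma), and it was -13.5 points without aged STD replicate 5. Since the 61 bases around it occur 47 times in the assembly, reads from other copies could have been placed here, and their part in the values was not tested.

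Between aged ENR and aged STD mice 0 members passed either, against 0.00446% of all CpGs, and the lowest adjusted p was 0.181. At an unadjusted p under 0.05 there were 58 members (5.60%), 33 higher and 25 lower in aged ENR mice, against 1.9% of all CpGs (0.84% higher, 1.06% lower) and 3.34% of the 8628 CpGs. The median difference was 0.0985 points, and without aged STD replicate 5 it turned to -1.25 points with 20 higher and 40 lower among 60 members at an unadjusted p under 0.05. In that fit 14557 of all 694379 CpGs had such a p, 5600 higher and 8957 lower. A difference over 25 points was seen at 51 members (4.93%, and 60 members without replicate 5), against 8.33% of all CpGs and 1.02% of the 8628 measured in all mice. The aged STD mice enter this comparison and the previous one, so the differences of both are tied. As in that comparison, the share of all CpGs is a low background, and 39 members given no difference had such a p in its simulated data. An excess of the 58 members over members without a difference was not tested.

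The lowest adjusted p of this comparison was at an intergenic CpG 2247 bp upstream of the pseudogene Gm11736 (chr11:113754455-113754455). Young STD mice had 38.8 to 99.1 percent with a median of 71.7, aged STD mice 60.7 to 100 with a median of 98.7, and aged ENR mice 0 to 55.8 with a median of 34.3. All aged ENR mice were below all aged STD mice, which was so at 1 member and at 0% of the other shared autosomal CpGs. The difference was -53.4 ± 9.76 points (SE), with an unadjusted p of 1.9e-05 and an adjusted p of 0.181 by limma. The member 9 bp away on the same strand had 74.9 percent for young STD, 79.7 for aged STD and 52.1 for aged ENR mice, a difference of -27.6 points between the aged groups with an unadjusted p of 0.0294.

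In an intron of Dlgap3, which encodes a scaffold protein of the postsynaptic density, aged ENR mice were the highest. At this CpG (chr4:127178237-127178237) young STD mice had 30.1 to 88.1 percent with a median of 47.0, aged STD mice 0 to 75.5 with a median of 48.0, and aged ENR mice 55 to 100 with a median of 97.0. The difference between aged ENR and aged STD was 44.2 ± 11.5 points (SE, adjusted p of 1 by limma), with overlapping groups, and a CpG 56 bp away had 73.9, 82.2 and 82.7 percent. The remaining large differences were 36.7 points near Hmgn2-ps1 and -36.6 points at a CpG of Gm47431 about 12354 bp from the nearest start.

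Between aged ENR and young STD mice 0 members passed, against 0.00504% of all CpGs, with a lowest adjusted p of 0.557. At an unadjusted p under 0.05 there were 77 members (7.44%), 17 higher and 60 lower in aged ENR mice, against 2.18% of all CpGs (0.828% higher, 1.35% lower) and 4.25% of the 8628 CpGs. For these 77 members too the share of all CpGs is a low background, by the simulated data of the aging comparison. The mean difference was -2.66 points over the members and -0.847 points over all CpGs. A difference over 25 points was seen at 66 members (6.38%), against 8.43% of all CpGs and 1.22% of the 8628 measured in all mice.

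**Figure D5:**
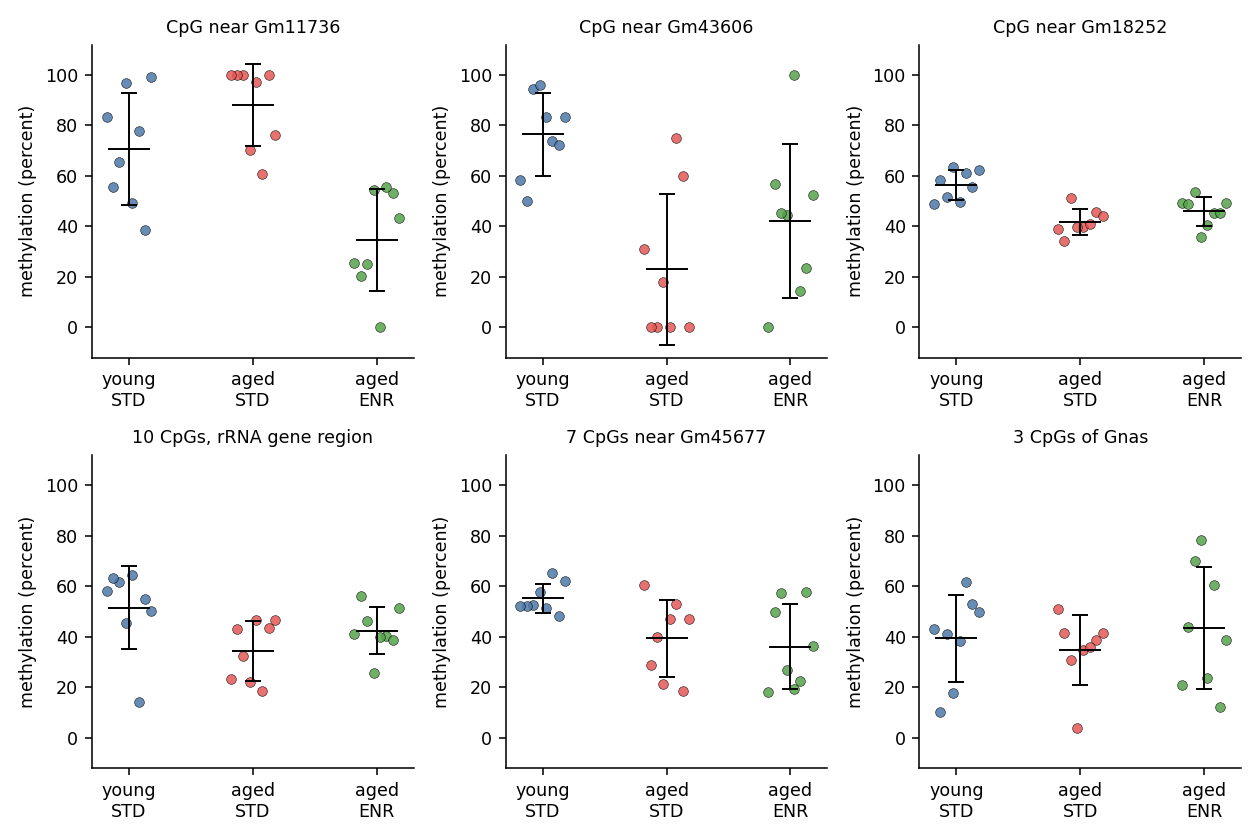
Each point is 1 mouse, with the group mean (bar) and SD (whiskers) in percent methylation, for single CpGs near Gm11736, Gm43606 and Gm18252 (top) and for means over the 10 members of the rRNA gene run, the 7 near Gm45677 and the 3 of Gnas (bottom). Aged ENR mice lie below all aged STD mice near Gm11736, and the groups overlap in the other panels.

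The spread between mice was compared between aged STD and young STD mice by the absolute deviations of the mice from their group mean. The median SD within a group was 20.4 points for young STD mice, 24.8 for aged STD mice (22.2 without replicate 5) and 21.7 for aged ENR mice. The SD was larger in aged STD than in young STD mice at 672 members, at 580 without replicate 5, and larger in aged ENR than in young STD mice at 552. The test passed at 12 members (1.16%), but at 14.7% of all CpGs, so this was under the background. Deviations from the median in place of the mean left 0 members, with 0.285% of all CpGs passing, and 34 members at an unadjusted p under 0.05 (29 larger in aged STD), against 2.68% of all CpGs, of which 48.3% were larger in aged STD. In a fit on the 8628 CpGs measured in all mice alone, 35 members and 4.06% of the CpGs had such a p.

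Clusters of members were found at few genes. Gm48668, a pseudogene of chromosome 12, had the most, 23 members over 2774 bp (chr12:20231546-20234319), with means of 53.4 to 74.9 percent. Their mean was 59.99 to 75.7 percent with a median of 70.1 among young STD mice, 44.1 to 71.9 with a median of 63.4 among aged STD mice, and 60.9 to 71.7 with a median of 68.1 among aged ENR mice. The group means were 69.4 ± 4.64, 60.9 ± 9.04 and 67.3 ± 3.91 percent (SD, n = 8), and the groups overlapped. Without replicate 5, the lowest mouse, aged STD mice had 63.3 ± 6.45 percent. At an unadjusted p under 0.05 there were 4 of the 23 members in the aging comparison (2.23% of all CpGs and 4.33% of the 8628 measured in all mice) and 3 in the ENR comparison (1.9% and 3.34%), and without replicate 5 there were 2 and 1.

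The rRNA gene region of chromosome 17, chosen after its values were seen, held 20 members. Ribosomal RNA genes are present in many near-identical copies of which the assembly holds few, so reads of other copies can fall on this stretch, and their part was not tested. Of the members 11 were nearest to Gm26917, 6 to the rRNA gene CT010467.1 and 3 to AY036118, and 17 lay on the plus strand. Their mean was 24.6 to 49.0 percent with a median of 43.6 among young STD mice, 22.2 to 41.4 with a median of 33.7 among aged STD mice, and 28.8 to 43.8 with a median of 32.4 among aged ENR mice. Aged STD mice had a mean of 31.9 ± 6.91 percent (SD, n = 8), and 33.3 ± 6.16 percent without replicate 5. The groups overlapped, with 15 of the 20 members lower in aged STD than in young STD mice, and 18 without replicate 5.

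In the run of 10 members shown above, all lay on the plus strand within 59 bp, and neighbours in it can share reads. Young STD mice had a mean of 51.6 ± 16.5 percent, aged STD mice 34.6 ± 11.9 percent (36.9 ± 10.8 without replicate 5) and aged ENR mice 42.5 ± 9.26 percent (SD, n = 8). One young STD mouse had 14.2 percent, the lowest of all 24. The differences between aged STD and young STD ranged from -21.8 to -12.3 points over the 10 CpGs, and at 4 of them the unadjusted p was under 0.05 (also 4 without replicate 5), with an adjusted p of 1 at each. The run was chosen after its values were seen, and 2.23% of all CpGs and 4.33% of the 8628 measured in all mice had such a p. In the same run the level differed from CpG to CpG, from 31.5 to 60.4 percent.

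Near Gm45677 (chr8:15519896-15519959) the 7 members had group means of 55.3 ± 5.86 percent for young STD, 39.5 ± 15.3 for aged STD and 36.1 ± 16.9 for aged ENR mice (SD, n = 8). Without replicate 5 aged STD mice had 36.5 ± 13.7 percent. Young STD mice ranged from 48.3 to 65.3 percent, aged STD mice from 18.6 to 60.7 and aged ENR mice from 18.1 to 57.9. The aged groups thus reached lower than any young mouse and overlapped the young ones at the top. All 7 members were lower in aged STD mice, with or without replicate 5, 3 of them at an unadjusted p under 0.05 and 4 without replicate 5, beside 2.23% of all CpGs and 4.33% of the 8628 measured in all mice. Parts of this stretch occur up to 9 times in the assembly. At Tmem267 (chr13:119489036-119489108) the 7 members had 66.9 ± 22.5, 67.0 ± 38.6 (67.04 ± 41.7 without replicate 5) and 71.5 ± 13.7 percent, and aged STD mice covered the whole scale from 0 to 100. The last of the 5 genes with the most members, Gm42642 with 7 members (chr6:3182937-3183327), had 41.9 ± 7.16, 40.6 ± 5.62 (41.005 ± 5.97 without replicate 5) and 41.9 ± 13.4 percent.

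Imprinted genes, a list set with earlier results of these data known, were nearest to 8 members at 5 genes, of 36 shared CpGs at 13 genes (22.2%, against 12.6% of all shared autosomal CpGs). Gnas, which encodes the alpha subunit of the stimulatory G protein, had 3 members on the minus strand within 1 kb of a start (chr2:174328355-174328398), with means of 38.0 to 41.8 percent. Mkrn3, which encodes a ubiquitin ligase, had 2 members with means of 34.2 and 35.8 percent. Igf2, a growth factor, Plagl1, a zinc finger transcription factor, and Trappc9, a trafficking protein, had 1 each, with means of 73.7, 27.1 and 62.7 percent.

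At Gnas the neighbours on the plus strand, outside the members because they had values in 18 mice, were as intermediate as the members. All 7 plus-strand CpGs within 75 bp had means of 40.9 to 47.4 percent. At Igf2, by contrast, the CpGs 33 and 62 bp from the member had means of 86.8 and 77.9 percent, and at Plagl1 and Trappc9 the table held no CpG within 75 bp. Over the 3 members young STD mice had 10.5 to 61.7 percent with a median of 42.0, aged STD mice 3.85 to 51.0 with a median of 37.4, and aged ENR mice 12.3 to 78.5 with a median of 41.5. The medians lay within a few points of each other, and single mice spread widely around them. The lowest value, 3.85 percent, was that of aged STD replicate 5, and without it the aged STD mean rose from 34.8 ± 13.9 to 39.2 ± 6.50 percent. Of the 8 members at imprinted genes 0 had an unadjusted p under 0.05 by limma in the aging or the ENR comparison, beside 2.23% and 1.9% of all CpGs, and a list of 8 is too short to read anything from this. Mice at 0 and mice at 100 percent were both present at Mkrn3, Igf2 and Plagl1 and at neither Gnas nor Trappc9.

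The lists of neuronal genes and of genes of glia and other cell types, which would mark the cells of the tissue, held 16 and 14 shared CpGs and 0 members each. Members made up 12.6% of all shared autosomal CpGs, and lists this short are too small to read anything from. The labelled tissue itself was not checked, since no RNA was measured. The CpGs nearest to the bounds of the choice were close in level on either side. Just inside were CpGs near Cpz (25.03 percent) and Sept1 (74.96 percent), with SDs over 24 mice of 11.5 and 28.7 points, and just outside CpGs near Gm22971 (24.9996 percent) and Sh2d3c (75.07 percent), with 20.8 and 31.8 points. One member, near Gm26917 (chr17:39843648-39843648, minus strand), does not lie at a CG of the reference, and its mice ranged from 0 to 77.97 percent.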

How the data were processed

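Dentate gyrus DNA of 24 mice was measured by RRBS. The authors aligned trimmed reads to mm10 with Bismark. With methylKit they required 10 or more reads per CpG and mouse and at least 3 measured mice per group. They deposited the percent methylation of each CpG in each mouse, with strands separate and mice not pooled. The submitters' processing notes name Trim Galore 0.4.0, cutadapt 1.8.1, Bismark 0.16.1 and methylKit 1.5.2, and the paper's methods give other versions of Trim Galore and Bismark. Read numbers per value were not used here, so the depth behind single values is unknown and no intervals were computed.

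The members and gene lists were chosen with earlier results of these data known. The mean that chose the members is a description. The named CpGs are the 4 with the largest difference in each of the aging and ENR comparisons, the 5 with the smallest SD (means of 40 to 60 percent), the 5 with the largest SD and those at the bounds, with at most 1 CpG per gene in each of these lists. Imprinted genes and the 5 genes with the most members are described by all their members. The rRNA gene region, the 4 CpGs inside the range in all mice and the CpG without a CG were added after their values were seen.

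The percentages were fitted in R 4.3.3 by limma 3.58.1, in a single model of the 3 groups over 694379 CpGs with moderated variances, and p-values were adjusted by Benjamini-Hochberg over the whole table. The spread was tested on absolute deviations from the group mean in the same way. The script was tested on simulated data, where the adjusted p called few of the CpGs that had been given a difference and most of its calls were at CpGs given none. So a member that did not pass is not shown to be unchanged, and the calls over the whole table serve only as a background. At an unadjusted p under 0.05 this background is low for members, since 39 members given no difference had such a p, beside 2.08% of all CpGs given none. P-values rest on the mice as replicates. No pairing by replicate number was seen: same-numbered mice had a mean correlation of deviations of -0.00387, with 0 of 24 pairs above 0.1. The labels do not say whether same-numbered mice shared a cage or a batch. Annotation was GENCODE M21 and sequence GRCm38, the same build as mm10. Of the CpGs, 694363 lie at a CG of it on the strand given. Other steps used Python 3.11.15 (scipy 1.17.1, pandas 2.3.3, numpy 2.4.6), and matplotlib 3.10.9 for figures. Chromosome X was left out by the choice of the members.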

Additional observations from a re-analysis of the deposited data

Results flagged for a closer look

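A sample that stood far from the other 7 of its group, by Dixon's 95% limit for 8 samples, was found in 8 of the 96 groups of mice looked at (32 values, 3 groups each), and chance gives about 1 in 20. The mean over the members was 37.8 percent in aged STD replicate 5, with the next mouse at 48.0 percent. The mean over the 3 Gnas members was 3.85 percent in the same mouse, with the next at 30.7 percent.

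The other 6 were single CpGs, in mice other than aged STD replicate 5. At Atp2b1 young STD replicate 2 was at 19.05 percent, and at Plagl1 young STD replicate 7 was at 100 percent. The 2310043L19Rik CpG was at 53.3 percent in young STD replicate 7, and the Tspyl5 CpG at 69.6 percent in aged ENR replicate 1. Aged STD replicate 8 had 29.1 percent at Gm20675, and young STD replicate 8 had 0 percent at the Gm47431 CpG with the largest SD. Their causes were not tested.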

How the results depend on the processing

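No member passed at an adjusted p under 0.05 in any comparison with log2(percent + 1), with p adjusted over the CpGs of all 24 mice, with at least 5 mice a group, with robust moderation, or with each mouse left out (0 to 0), where the lowest adjusted p was 0.0556, 0.0642 and 0.137 for aging, ENR and aged ENR against young STD. A fit over the CpGs with all 24 mice alone, added after the data were seen, gave 0 members and lowest adjusted p of 0.0839, 0.140 and 0.471. With the replicate number as a block 0 members passed and 89, 62 and 73 had an unadjusted p under 0.05, beside 1.87%, 1.66% and 1.83% of the 658307 CpGs that could be fitted. By the labels the samples of a block share only a number. Over all CpGs 34, 31 and 35 passed in the 3 comparisons, against 599, 534 and 499 of those fitted with the block, 93, 86 and 97 on the log2 scale, 0 in each fit limited to CpGs with at least 5 mice a group or all 24 mice, and up to 218, 208 and 157 with a mouse left out. With size alone, 57, 51 and 66 members differed by over 25 points and 438, 399 and 412 by over 10, as did 29%, 27.9% and 28.1% of all CpGs and 15.04%, 14.1% and 13.5% of the 8628 measured in all mice. On the log2 scale 51 and 41 members had an unadjusted p under 0.05 in aging and in aged ENR against young STD. On the percent scale, the counts at an unadjusted p under 0.05 ranged from 72 to 97, 47 to 69 and 69 to 85 with a mouse left out.

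The spread test passed at 12 members and at 0 with deviations from the median, also in the fit on CpGs with all mice (0, against 9 with deviations from the mean, where 6.24% of these CpGs passed). Leaving out a mouse gave 8 to 23, with 23 without aged STD replicate 4 and 19 without replicate 6. The group means of the members ranged from 50.9 to 51.8, 48.1 to 50.3 and 48.4 to 49.2 percent with a mouse left out. The difference of aged STD and young STD ranged from -3.37 to -1.19 points (the latter without aged STD replicate 5), that of aged ENR and aged STD from -1.47 (without replicate 5) to 0.715, and that of aged ENR and young STD from -3.08 to -2.10. The median SD ranged from 22.99 to 24.2 points.

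Bounds of 40 and 60 percent left 335 members, and bounds of 10 and 90 percent in all mice 69. Within 500 bp of a start were 10.4% of the members, and within 1 kb of a protein-coding one 10.9%. Another member was within 20 bp of 27.9% and within 200 bp of 51.5%, and 41-base windows had copies for 5.42%. Of 590 recomputed values 571 stayed on the same side of the threshold, within the spread or within 1.5 times the count, and 19 moved. Many could not move, since a new adjustment, robust moderation or leaving out a mouse of the third group leaves a difference of means unchanged. All but the Gm18252 CpG had been chosen for their large differences, so a kept direction is no test of them. The named differences kept their direction in all of their recomputed values. With a mouse left out they ranged from -60.8 to -50.1 points at Gm43606, 43.0 to 57.3 at B430119L08Rik, 40.7 to 54.7 at Gm24120, -53.0 to -38.7 at Atp2b1, -57.3 to -48.5 at Gm11736, 38.0 to 48.8 at Dlgap3, 29.8 to 43.0 at Hmgn2-ps1, -42.8 to -29.2 at Gm47431 and -15.9 to -13.5 at Gm18252. A coverage minimum was not tried, since no read numbers were at hand, and depth therefore limits every single value in a way that was not measured.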
